A study of Homo sapiens with 16 samples.

Results

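The protease-activated receptors (PARs) and the proteins that hold trypsin-like proteases in check were examined in Caco-2 cells, a human colon carcinoma line that grows as an epithelium. The 9 genes were taken by name, with every probe of the array that carries that name. They were the 4 receptors F2R, F2RL1, F2RL2 and F2RL3, the 4 inhibitors SPINT1, SPINT2, SPINK1 and SERPINA1, and ST14, a trypsin-like protease of the cell surface. They are 9 of 30982 gene or transcript names on the array and were measured by 10 of its 41000 probes, because F2RL2 had 2 probes and each of the others 1.

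All cells were undifferentiated Caco-2 cells on the third day after seeding, stimulated for 6 h in minimum essential medium with 1% fetal calf serum, and the study asked whether gliadin peptides change transcription in such cells. MED-CTL cells received the medium alone, p31-43 cells 150 µg/ml of a synthetic gliadin peptide, PT-G cells gliadin digested with pepsin and trypsin, and PT cells a blank digest made without gliadin. Both enzymes were heat-inactivated after digestion according to the study's methods. Cells of all 4 conditions, MED-CTL included, were detached with trypsin-EDTA before RNA extraction, so every array comes from cells that met active trypsin for a few minutes. The 16 arrays, 4 per condition, came from 4 independent experiments on 1 cell line.

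PARs are G protein-coupled receptors that carry their own ligand: a protease cuts the extracellular N-terminus, and the new end folds back and switches the receptor on. F2R encodes PAR1, the classical thrombin receptor, F2RL1 encodes PAR2, which trypsin cleaves and which is well known from intestinal epithelium, and F2RL2 and F2RL3 encode the thrombin-sensitive PAR3 and PAR4. Active PARs signal through G proteins to calcium and protein kinases, and genes of cytokines, adhesion molecules and growth factors follow.

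F2R, F2RL1 and F2RL2 lie in 1 cluster on chromosome 5. In the RefSeq annotation of GRCh38.p14, F2RL2 comes first, then the long noncoding RNA NCRUPAR, F2R, a small nucleolar RNA and F2RL1. Upstream sequence was available for 6 of the 9 genes, and not for F2R, SPINT2 and ST14. The 250 bases before the start of F2RL1 and F2RL2 are shown because these genes of the cluster lay at opposite ends of detection on the arrays. F2RL1 lies on the forward strand (chr5:76818780-76819029) and F2RL2 on the reverse strand (chr5:76623404-76623653). Each is written 5′ to 3′ on the strand of its gene, as given by RefSeq for GRCh38.p14.
F2RL1: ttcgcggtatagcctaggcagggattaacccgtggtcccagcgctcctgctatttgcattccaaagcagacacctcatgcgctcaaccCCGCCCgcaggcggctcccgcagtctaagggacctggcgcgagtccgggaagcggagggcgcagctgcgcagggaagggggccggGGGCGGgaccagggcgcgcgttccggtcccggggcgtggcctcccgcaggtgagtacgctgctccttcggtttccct
F2RL2: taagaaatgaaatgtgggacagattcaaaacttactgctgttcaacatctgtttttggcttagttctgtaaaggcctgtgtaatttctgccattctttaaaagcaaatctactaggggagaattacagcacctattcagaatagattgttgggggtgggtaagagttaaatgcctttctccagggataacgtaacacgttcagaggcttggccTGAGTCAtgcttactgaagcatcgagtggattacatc
Capitals mark matches to 3 motifs searched on both strands, the GC box GGGCGG bound by SP1, the AP-1 motif TGANTCA of FOS and JUN, and the EGR motif GCGNGGGCG. The F2RL1 window held 2 GC boxes and no match to the other motifs. The F2RL2 window held 1 AP-1 match and no GC box. Of 35116 promoter windows of this length, 42.6% held a GC box, 6.57% an AP-1 match and 8.41% an EGR match, and a match is a run of letters, not a measured site.

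Values are log2 intensities of the spots' median foreground, quantile normalized and not background corrected. A difference of 1 is therefore a doubling of the intensity with its background, and folds are folds of that intensity. Raw median intensities lay between 153 and 410 on the 16 arrays, between 27660 and 33947 of 43376 spots per array were well above background by the image analysis, and arrays of 1 condition correlated at 0.97 or more. The names of the deposited files hold 4 dates, called runs 1 to 4 here, with 1 array of each condition in a run. The labels do not say what the dates stand for. The arrays lay on 5 slides, and slide 5 held PT replicate 3 of run 3 and p31-43 replicate 4 of run 4. Of 13 epithelial markers, 11 were well above background on all arrays, among them VIL1, CDH1, EPCAM and CDX2. The keratin KRT20 was the 1 epithelial marker past the nominal p under 0.01 for the digests, at 0.63 for PT-G (SE 0.12, limma, adjusted p = 0.0251) and 0.50 for PT (SE 0.12, limma, adjusted p = 0.0884). The enterocyte markers SI, ALPI, LCT and ANPEP were also well above background on all arrays although the cells were described as undifferentiated. Of the markers of other cells, PTPRC of leukocytes, COL1A2 of fibroblasts and CDH5 of endothelium were well above background on none. By contrast, 3 of 4 leukocyte markers (CD3E, CD14 and CD79A) were so on all arrays. So were 3 of 5 fibroblast markers (COL1A1, COL3A1 and VIM) and 2 of 3 endothelial markers (PECAM1 and VWF). Of 3 pancreatic acinar markers 2 were measured, and neither was well above background on all arrays or on none. No member of these lists had a nominal p under 0.01 between PT-G or PT and MED-CTL. In such bulk RNA, fewer expressing cells and less RNA per cell cannot be told apart.

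**Figure D1:**
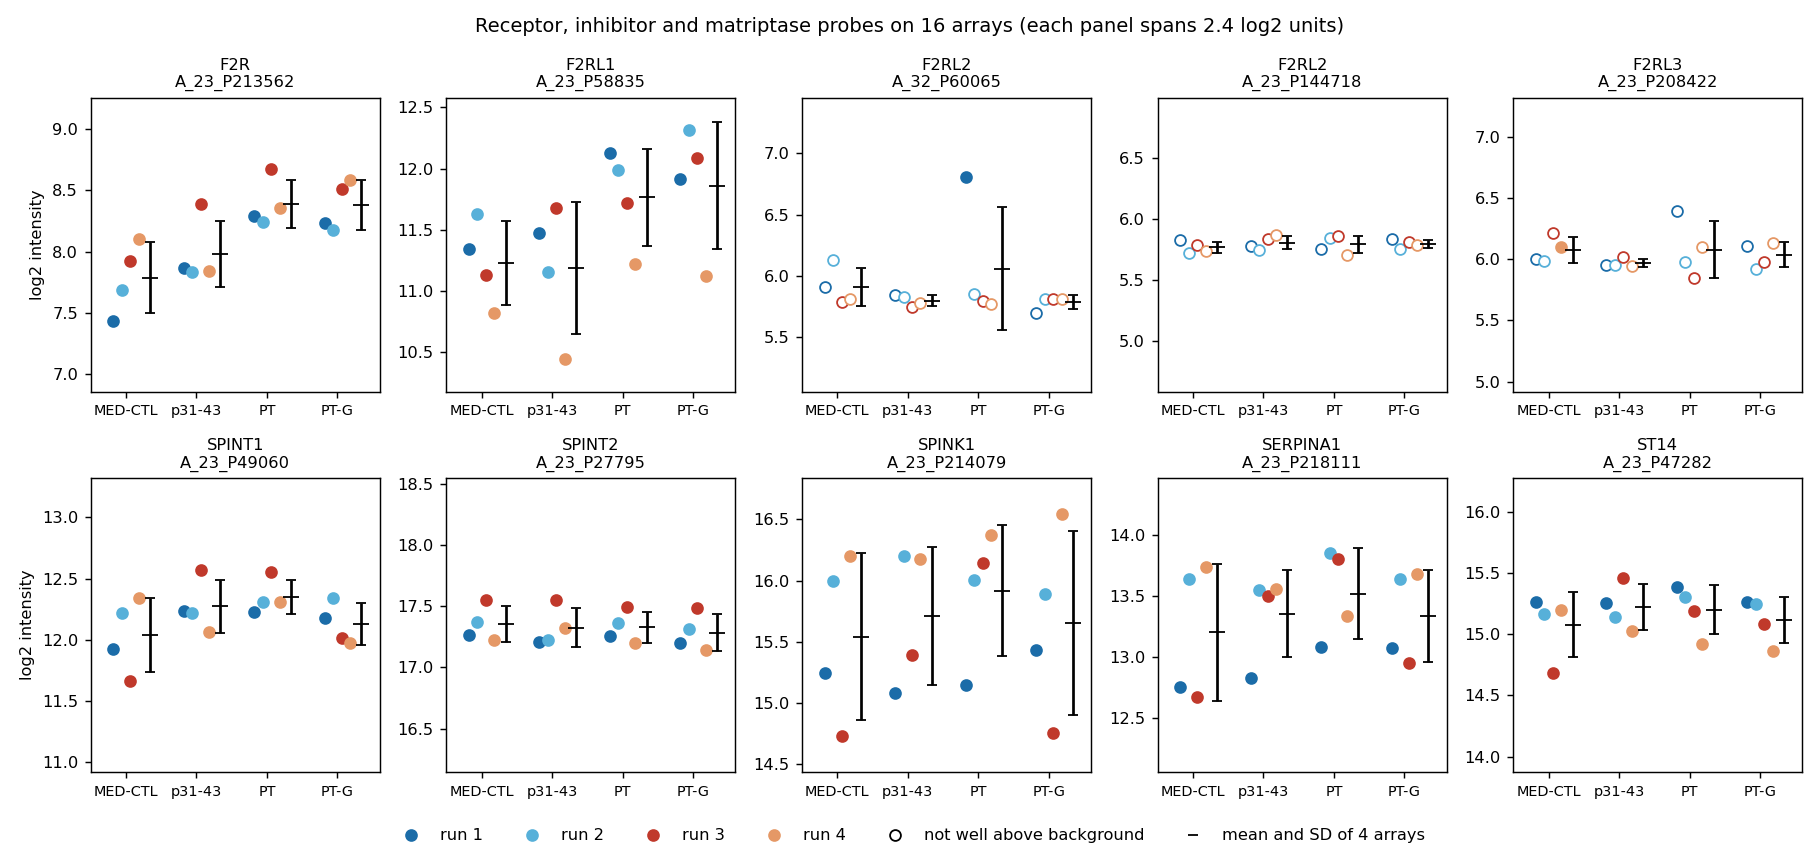
Log2 intensity (vertical axis) of each probe on the 16 arrays by condition, coloured by run, with hollow points where the spot was not well above background and bars for the mean and SD of 4 arrays. The F2R points of PT and PT-G lie above all 4 MED-CTL points, the F2RL2 and F2RL3 points are hollow except on 1 array for 1 F2RL2 probe and for F2RL3, and SPINK1 spreads by 1.81 over the arrays.

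Of the receptors, F2R and F2RL1 were well above background on all 16 arrays. F2RL3 was well above background on 1 array, MED-CTL replicate 4, and its 16 values lay between 5.84 and 6.39. The F2RL2 probe A_32_P60065 was well above background on PT replicate 1 alone, at 6.81, and its other values lay between 5.70 and 6.12. The second F2RL2 probe, A_23_P144718, was well above background on no array and stayed between 5.71 and 5.87. No fold change is therefore given for F2RL2 and F2RL3. All 16 arrays measured the 4 inhibitors and ST14 well above background, and no spot of any of the 10 probes was saturated or marked as an outlier.

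F2R expression was higher after both digests than in medium. In MED-CTL cells its log2 intensity was 7.43, 7.69, 7.93 and 8.10 in runs 1 to 4. After PT it was 8.29, 8.24, 8.68 and 8.35, and after PT-G 8.23, 8.18, 8.51 and 8.59. All 8 digest arrays lay above the highest MED-CTL array. The p31-43 arrays measured 7.87, 7.83, 8.39 and 7.84, so that 3 of them lay among the MED-CTL values and the array of run 3 among those of the digests. By condition means, the order was MED-CTL at 7.79 ± 0.29 (SD, n = 4), p31-43 at 7.98 ± 0.27, PT-G at 8.38 ± 0.20 and PT at 8.39 ± 0.20.

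The difference from MED-CTL was 0.59 for PT-G (SE 0.17, limma, adjusted p = 0.151), a 1.51-fold level with a 95% confidence interval of 1.18 to 1.93. For PT it was 0.60 (SE 0.17, limma, adjusted p = 0.141), a 1.52-fold level with an interval of 1.19 to 1.94. Both passed the study's threshold of a nominal p under 0.01 and missed an adjusted p under 0.05. F2R was the single probe of the 10 past the nominal threshold, where 1.91% of all probes were called higher for PT-G and 1.8% for PT. Its groups did not overlap, as was the case upwards for 2.01% of all probes for PT-G and 2.36% for PT. PT-G and PT share the MED-CTL arrays, so their values against medium are not independent of each other.

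Within each run, F2R lay higher after either digest than in medium. PT-G minus MED-CTL was 0.80, 0.49, 0.59 and 0.49 in runs 1 to 4, and PT minus MED-CTL was 0.86, 0.55, 0.75 and 0.25. With the run as a block in the model the SE fell to 0.11, and F2R passed the adjusted threshold for PT-G (limma, adjusted p = 0.00833) and for PT (limma, adjusted p = 0.00741). The same held with the replicate number (limma, adjusted p = 0.0104 for PT-G and 0.00943 for PT) or the slide (limma, adjusted p = 0.00938 for PT-G and 0.0102 for PT) as the block, and with early and late runs (limma, adjusted p = 0.0123 for PT-G and 0.0117 for PT). The nominal call without a block was lost for PT-G without MED-CTL replicate 2 (0.47), PT-G replicate 3 (0.55) or PT-G replicate 4 (0.52), and for PT without MED-CTL replicate 2 (0.49) or PT replicate 3 (0.51). On the background-subtracted signal the PT-G difference was 0.70 and also missed the nominal threshold (limma, adjusted p = 0.453). The PT difference on that signal was 0.76 and passed it (limma, adjusted p = 0.334).

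Neither the gliadin in the digest nor the peptide alone gave a detectable difference in F2R. PT-G minus PT was -0.01 (SE 0.17, limma, adjusted p = 1), with an interval from 0.775 to 1.27 as a fold. The p31-43 difference from MED-CTL was 0.20 (SE 0.17, limma, adjusted p = 1), a 1.15-fold level with an interval from 0.896 to 1.46, and was 0.43, 0.15, 0.46 and -0.26 in the 4 runs. A change of up to 1.27-fold by gliadin over the blank digest was thus within the interval.

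**Figure D2:**
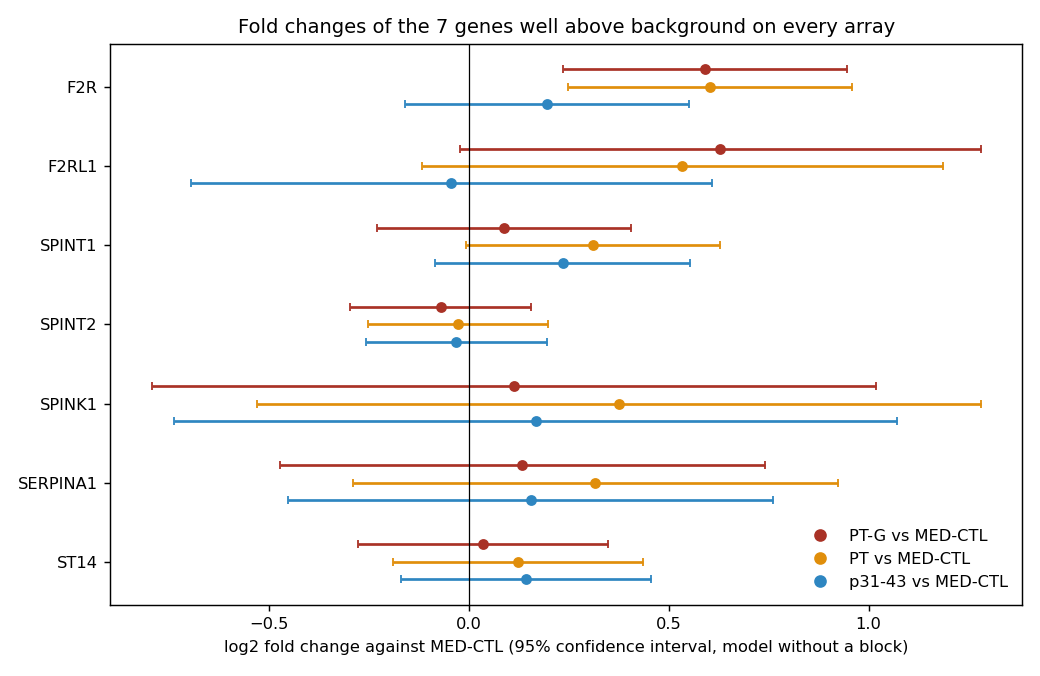
Log2 fold change against MED-CTL (horizontal axis) with its 95% confidence interval for the 7 genes well above background on every array, in the model without a block, n = 4 arrays per condition. The F2R intervals for PT-G (0.24 to 0.95) and PT (0.25 to 0.96) exclude 0, and those of F2R for p31-43 and of the other 6 genes include it.

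F2RL1, the gene of PAR2, had higher values after the digests in every run, by about as much as F2R, but its arrays spread more. Its log2 intensity in MED-CTL cells was 11.34, 11.63, 11.13 and 10.82 in runs 1 to 4. After PT it was 12.13, 11.99, 11.72 and 11.22, and after PT-G 11.92, 12.31, 12.09 and 11.12. The groups overlapped, since the run 4 array of either digest lay below the highest MED-CTL array. The p31-43 arrays measured 11.48, 11.16, 11.68 and 10.44, and the lowest array of each condition was that of run 4. The means were 11.19 ± 0.54 (SD, n = 4) for p31-43, 11.23 ± 0.34 for MED-CTL, 11.77 ± 0.40 for PT and 11.86 ± 0.52 for PT-G.

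For PT-G the F2RL1 difference from MED-CTL was 0.63 (SE 0.30, limma, adjusted p = 0.662), a 1.55-fold level with an interval from 0.985 to 2.43. For PT it was 0.53 (SE 0.30, limma, adjusted p = 0.697), a 1.45-fold level with an interval from 0.922 to 2.27. Neither passed the nominal threshold without a block. Within the 4 runs PT-G minus MED-CTL was 0.57, 0.685, 0.96 and 0.30, and PT minus MED-CTL was 0.78, 0.36, 0.59 and 0.40. Run means of F2RL1 ranged over 0.87, more than the 0.67 of the condition means.

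With the run as a block, the SE of F2RL1 fell to 0.15, and PT-G passed the adjusted threshold (limma, adjusted p = 0.0355) whereas PT passed the nominal threshold alone (limma, adjusted p = 0.0651). The replicate number as a block gave the same calls (limma, adjusted p = 0.0449 for PT-G and 0.0799 for PT), and with the slide as a block both digests passed the adjusted threshold, PT at a difference of 0.70 (limma, adjusted p = 0.044 for PT-G and 0.0435 for PT). For PT-G, 2 of the 10 probes, F2R and F2RL1, thus passed the adjusted threshold with the run as a block, where 3.21% of all probes did so upwards. For PT it was 1 of the 10, F2R, where 3.15% of all probes did. At the nominal threshold with that block, both receptors were called for either digest, where 4.92% of all probes were called higher for PT-G and 4.86% for PT. Early and late runs as a block did not bring F2RL1 past either threshold (limma, adjusted p = 0.302 for PT-G and 0.388 for PT). Without PT-G replicate 4, the F2RL1 difference for PT-G was 0.88 and passed the nominal threshold in the model without a block (limma, adjusted p = 0.343).

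Gliadin and the peptide gave no detectable F2RL1 difference either. PT-G minus PT was 0.10 (SE 0.30, limma, adjusted p = 1), with an interval from 0.680 to 1.68 as a fold, and had either sign in 2 of 4 runs. The p31-43 difference from MED-CTL was -0.04 (SE 0.30, limma, adjusted p = 1), with an interval from 0.618 to 1.52 as a fold, and lay at 0.13, -0.47, 0.55 and -0.38 in the 4 runs.

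A higher value in 4 of 4 runs was found for 3 of the 10 probes for PT-G (F2R, F2RL1 and A_23_P144718 of F2RL2) and for 2 for PT (F2R and F2RL1), where 13.8% and 11.1% of all probes did so. The F2RL2 probe lay within background throughout, with within-run differences of 0.01 to 0.06. For none of the 10 probes did the effect of a condition differ between runs 1 and 2 and runs 3 and 4 past the nominal threshold, in an interaction fitted with limma.

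**Figure D3:**
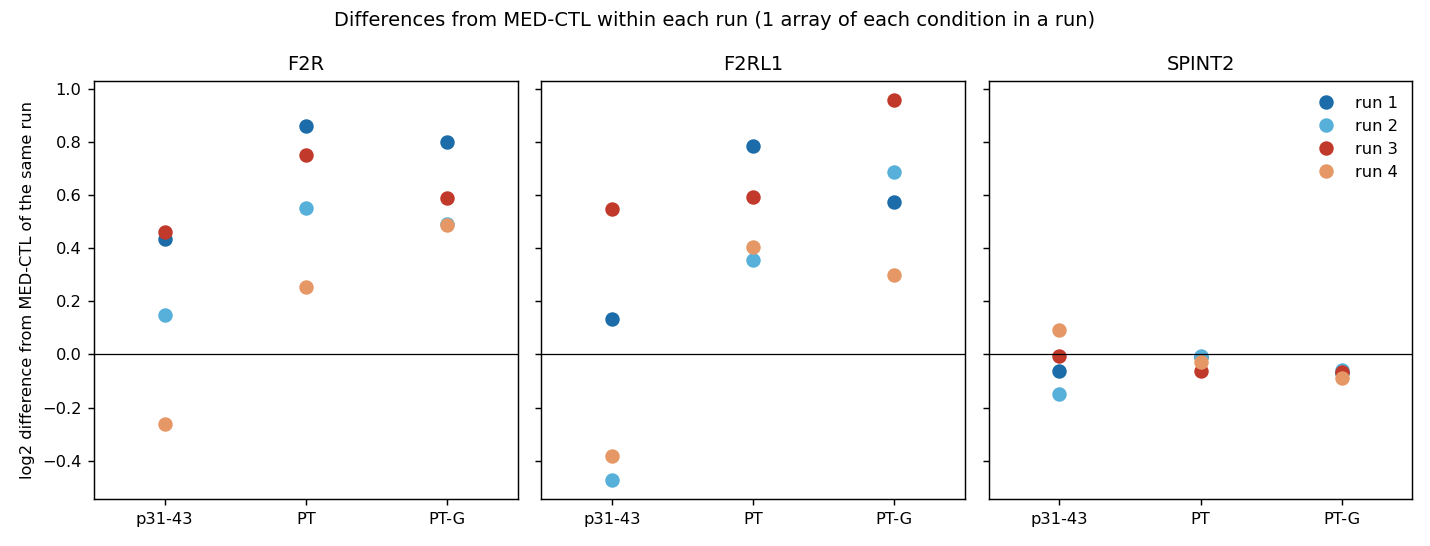
Log2 difference from the MED-CTL array of the same run (vertical axis) for p31-43, PT and PT-G, 1 point a run. F2R (0.25 to 0.86) and F2RL1 (0.30 to 0.96) lie above 0 in every run after PT and PT-G and on both sides of 0 after p31-43, and SPINT2 lies just below 0 after PT and PT-G.

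None of the 4 inhibitors passed the nominal threshold in any comparison. SPINT1 and SPINT2, the Kunitz-type inhibitors also known as HAI-1 and HAI-2, sit in the epithelial membrane and block matriptase and related proteases. SPINT1 was 11.93, 12.22, 11.67 and 12.34 in MED-CTL cells in runs 1 to 4, 12.23, 12.31, 12.56 and 12.31 after PT, and 12.18, 12.34, 12.01 and 11.98 after PT-G. The groups overlapped, and the lowest MED-CTL array was that of run 3. Its difference from MED-CTL was 0.31 for PT (SE 0.15, limma, adjusted p = 0.579), 0.09 for PT-G (SE 0.15, limma, adjusted p = 1) and 0.23 for p31-43 (SE 0.15, limma, adjusted p = 1). In run 3 SPINT1 was 0.89 above MED-CTL after PT and 0.91 after p31-43, against at most 0.31 after these stimulants in the other runs.

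SPINT2 was the most even of the 7 measured genes, with all 16 arrays between 17.14 and 17.55. In MED-CTL cells it was 17.27, 17.37, 17.55 and 17.23, after PT 17.26, 17.37, 17.49 and 17.20, and after PT-G 17.20, 17.31, 17.49 and 17.14. It lay lower in 4 of 4 runs for PT-G, by 0.06 to 0.09, and for PT, by 0.01 to 0.06, as did 14.8% and 13.5% of all probes. The difference was -0.07 for PT-G (SE 0.11, limma, adjusted p = 1) and -0.03 for PT. A run block brought the SE down to 0.05 (limma, adjusted p = 0.597 for PT-G). Bounds of the interval for PT-G were 0.814 and 1.11 as a fold. After p31-43 the difference was -0.03, with run 4 at 0.09 and the other runs below 0.

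SPINK1 and SERPINA1 are secreted, SPINK1 as the Kazal-type pancreatic secretory trypsin inhibitor and SERPINA1 as alpha-1-antitrypsin, a serpin that inhibits neutrophil elastase and, among others, trypsin. SPINK1 was 15.25, 16.00, 14.73 and 16.20 in MED-CTL cells in runs 1 to 4, 15.15, 16.00, 16.15 and 16.37 after PT, and 15.43, 15.89, 14.76 and 16.54 after PT-G. Its p31-43 arrays measured 15.08, 16.20, 15.39 and 16.17. Levels differed more between runs than between conditions, with run means ranging over 1.10 and condition means over 0.37. In run 3, the MED-CTL, p31-43 and PT-G arrays shared slide 3 at 14.73, 15.39 and 14.76, whereas the PT array lay on slide 5 at 16.15. The PT difference from MED-CTL was 0.37 (SE 0.42, limma, adjusted p = 0.869) and 0.09 with the slide as a block. For PT-G it was 0.11 and for p31-43 0.17 (SE 0.42 each, limma, adjusted p = 1 each), and the interval for PT-G ran from 0.577 to 2.02 as a fold. The positions that the array design gives for the SPINK1 probe span 3375 bases, against 60 for the other 9 probes.

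SERPINA1 varied in a like manner, at 12.75, 13.64, 12.68 and 13.73 in MED-CTL cells, 13.08, 13.85, 13.80 and 13.33 after PT, and 13.08, 13.63, 12.95 and 13.68 after PT-G. The p31-43 arrays lay at 12.83, 13.55, 13.50 and 13.55. Run means ranged over 0.73 and condition means over 0.32. The differences from MED-CTL were 0.32 for PT (SE 0.28, limma, adjusted p = 0.834), 0.13 for PT-G and 0.15 for p31-43 (SE 0.28 each, limma, adjusted p = 1 each). In run 3 the PT array of slide 5 was 1.13 above MED-CTL. The p31-43 and PT-G arrays of run 3, on the slide of that MED-CTL array, were 0.82 and 0.27 above it. By raw median intensity, the MED-CTL array of run 3 was the lowest of the 16, at 153. The PT array of run 3 was the highest, at 410. In run 4 the PT array, on the slide of its MED-CTL array, differed from it by -0.40. The parts of the slide, beyond the block, and of array intensity in the SPINK1 and SERPINA1 values were not tested.

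**Figure D4:**
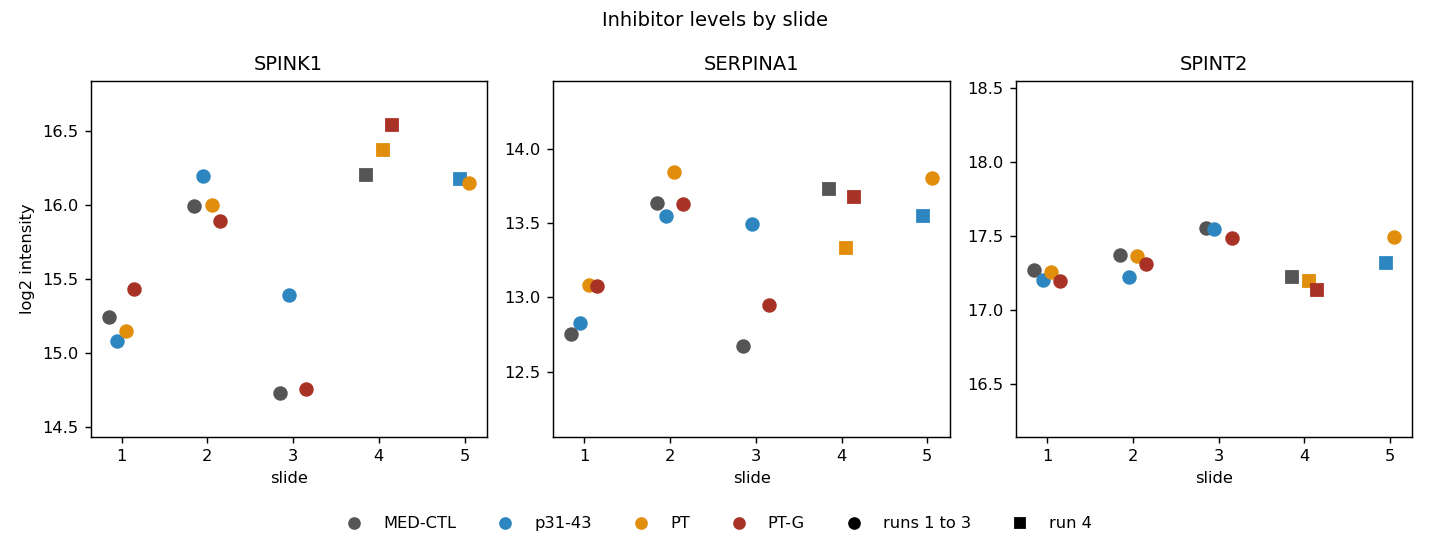
Log2 intensity (vertical axis) of SPINK1, SERPINA1 and SPINT2 by slide, coloured by condition, with squares for run 4 and circles for runs 1 to 3. SPINK1 lies at 14.73 to 15.39 on slide 3 and at 16.20 to 16.54 on slide 4, while SPINT2 spans 0.42 in all.

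ST14 encodes matriptase, a membrane-bound protease of epithelia that SPINT1 and SPINT2 inhibit and that can cleave PAR2. It was 15.26, 15.17, 14.69 and 15.20 in MED-CTL cells in runs 1 to 4, 15.39, 15.30, 15.19 and 14.92 after PT, and 15.26, 15.25, 15.08 and 14.86 after PT-G. The groups overlapped, and the lowest of the 16 arrays was the MED-CTL array of run 3. Differences from MED-CTL were 0.12 for PT (SE 0.15, limma, adjusted p = 0.876), 0.04 for PT-G and 0.14 for p31-43 (SE 0.15 each, limma, adjusted p = 1 each). PT-G lay below PT in 4 of 4 runs, by 0.05 to 0.12, as did SPINT2, where 4.5% of all probes did, and the difference was -0.09 (SE 0.15, limma, adjusted p = 1).

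Across the whole set, none of the 10 probes had a nominal p under 0.01 between p31-43 and MED-CTL, where 0.388% of all probes did, or between PT-G and PT, where 0.0903% did. At a nominal p under 0.05 none did in these comparisons either, where 2.15% and 0.781% of all probes did. No member had an adjusted p under 0.05 by limma in any of the 4 comparisons without a block. The arrays that p31-43 and the digests were compared with were the same 4 MED-CTL arrays.

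A list of 24 genes held proteases that cut PARs or activate such proteases, and with them PROCR, THBD and F3, which are not proteases. Its genes are called proteases below. Of the 24, 17 were well above background on all arrays and 3 on none. For PT-G 2 of the 24 were higher at a nominal p under 0.01 and none lower, and for PT 3 were higher, with none past the adjusted threshold and a median difference of 0.07 and 0.02, against -0.01 for all probes in both comparisons. Of all probes, 1.91% were called higher for PT-G and 1.8% for PT. A block for the run put 2 past the adjusted threshold for PT-G and 3 for PT, where 3.21% and 3.15% of all probes were. PRSS22, a secreted tryptase of epithelia, was 13.03, 13.28, 12.79 and 13.77 in MED-CTL cells and 13.96, 14.25, 13.80 and 14.27 after PT-G. These groups did not overlap, and the difference was 0.85 (SE 0.20, limma, adjusted p = 0.0629), with 0.88 after PT (SE 0.20, limma, adjusted p = 0.0547). Blocked by run, PRSS22 passed for both digests (limma, adjusted p = 0.00215 for PT-G and 0.00186 for PT). PROC, which encodes the anticoagulant protein C, differed by 0.46 for PT-G (SE 0.10, limma, adjusted p = 0.0522) and 0.39 for PT (SE 0.10, limma, adjusted p = 0.122), and passed for both with that block (limma, adjusted p = 0.00743 and 0.0176). The third for PT was PROCR, the protein C receptor, at 0.49 (SE 0.14, limma, adjusted p = 0.164, or 0.0313 blocked by run), named after its value was seen. The trypsinogens PRSS1, PRSS2 and PRSS3, near-identical genes whose probes may share signal, had differences from MED-CTL of 0.15, 0.43 and 0.42 after PT-G, 0.45, 0.57 and 0.77 after PT and 0.19, 0.21 and 0.25 after p31-43. None of these passed the nominal threshold, and the 3 genes were named after their values were seen. For p31-43, where 0.388% of all probes passed in either direction, 1 of the 24 was lower, KLK14, a kallikrein, at -0.33 (SE 0.10, limma, adjusted p = 1), also named after its value was seen.

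The list of 28 other serine protease inhibitors also held non-inhibitory serpins such as SERPINA6 and SERPINB5. None of the 28 passed the nominal threshold for PT-G, p31-43 or PT-G against PT, and 1 did upwards for PT. Of all probes, 1.91% were called higher for PT-G and 1.8% for PT. It was TFPI2, an inhibitor of the tissue factor pathway type (limma, adjusted p = 0.248, or 0.0366 blocked by run). TFPI2 was well above background on 2 of 4 PT arrays and on no MED-CTL array. Its PT arrays measured 6.77, 6.35, 5.91 and 6.48 in runs 1 to 4, against a MED-CTL mean of 5.92. No fold change is therefore given for TFPI2. SPINK5, a Kazal-type inhibitor, had the next smallest p, with -0.44 for PT (SE 0.21, limma, adjusted p = 0.596). The median difference of the 28 was 0.02 for PT-G and 0.08 for PT.

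Of 28 transducers of PAR signalling, 26 were well above background on all arrays. Of the 28, 1 passed the nominal threshold upwards for PT-G and none for PT, without a block, and none passed the adjusted threshold. At the nominal threshold 1.91% of all probes were called higher for PT-G and 1.8% for PT. PRKCA, a protein kinase C, differed by 0.40 for PT-G (SE 0.16, limma, adjusted p = 0.485) and 0.45 for PT (SE 0.16, limma, adjusted p = 0.337). A block for the run put 2 higher and 1 lower past the adjusted threshold in either comparison, named after their values were seen. With that block 3.21% of all probes were higher and 2.54% lower for PT-G, and 3.15% higher and 3.41% lower for PT. For PT-G they were PRKCD at 0.35, the receptor kinase GRK5 at 0.42 and, lower, the calcium channel ITPR1 at -0.55 (limma, adjusted p = 0.0238, 0.0479 and 0.0185). For PT they were PRKCD at 0.37, PRKCA at 0.45 and, lower, ITPR1 at -0.72 (limma, adjusted p = 0.017, 0.0347 and 0.00417).

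The last list held 16 genes known to be induced when PARs are stimulated, immediate-early, cytokine and growth factor genes that many other stimuli also induce. For PT-G 7 of the 16 were higher at a nominal p under 0.01 and 4 past the adjusted threshold, and for PT 8 and 3, with none lower. Without PT replicate 4, 5 of the 16 passed the nominal threshold for PT. The median difference was 0.75 for PT-G and 0.71 for PT, against 0.04 for p31-43, where none passed, and 6.16e-04 for PT-G minus PT, where none passed either. At the nominal threshold 1.91% of all probes were higher for PT-G and 1.8% for PT, and 0.593% and 0.437% were higher past the adjusted threshold. With the run blocked, 9 of the 16 passed it for PT-G and 11 for PT, all higher, where 3.21% and 3.15% of all probes were. The list was drawn up with earlier results of these arrays known, so its direction is not independent evidence.

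ICAM1, the adhesion molecule that binds leukocytes, was 11.29, 11.28, 11.17 and 11.14 in MED-CTL cells and 11.94, 12.19, 11.93 and 11.79 after PT-G. The groups did not overlap, and the difference was 0.74 for PT-G (SE 0.09, limma, adjusted p = 0.00136) and 0.74 for PT (SE 0.09, limma, adjusted p = 0.00167). HBEGF, a ligand of the EGF receptor, rose by 0.94 after PT-G (SE 0.13, limma, adjusted p = 0.00267) and 1.01 after PT (SE 0.13, limma, adjusted p = 0.00207). DUSP1, a phosphatase that turns off MAP kinases, rose by 1.18 after PT-G (SE 0.22, limma, adjusted p = 0.0205), and its PT difference was 0.97 (SE 0.22, limma, adjusted p = 0.0649). CXCL8, the neutrophil chemokine that the array names IL8, was well above background on all 8 digest arrays and on none of the MED-CTL or p31-43 arrays. By its means it was 1.72-fold higher after PT-G (mean 6.82 against 6.04, SE 0.13, limma, adjusted p = 0.0126) and 1.69-fold after PT (mean 6.79, limma, adjusted p = 0.0172). These folds are estimates and not lower bounds, and the MED-CTL values lay at background.

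**Figure D5:**
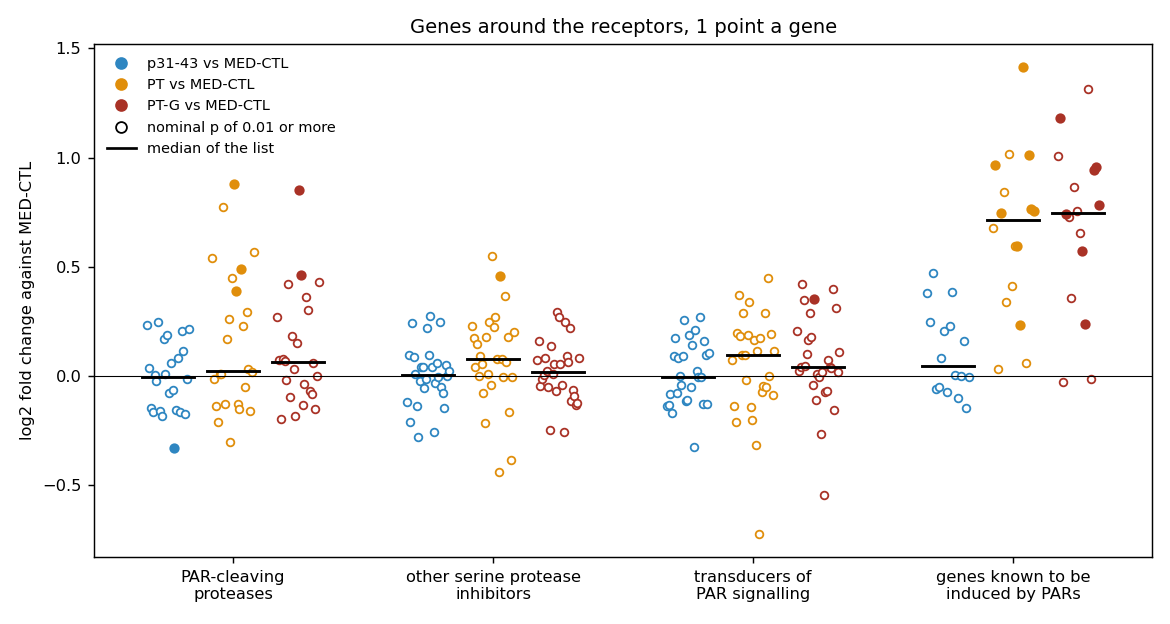
Log2 fold change against MED-CTL (vertical axis) of each gene of the 4 lists, 1 point a gene, filled where the nominal p was under 0.01, with a bar at the list's median. The medians of proteases, inhibitors and transducers lie within 0.10 of 0, and that of genes known to be induced by PARs lies at 0.71 after PT and 0.75 after PT-G but at 0.04 after p31-43.

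Among 17217 probes of other named genes well above background on all arrays, those most like F2R over the 16 arrays were XBP1, a transcription factor of the unfolded protein response (Pearson's r = 0.92), LIPG, endothelial lipase (r = 0.91), and TNFRSF1A, a TNF receptor (r = 0.909). The 16 points share conditions and runs, so r describes these arrays only. The choice by r used the differences between conditions, so the differences of these genes given next are not independent evidence. XBP1 differed from MED-CTL by 0.51 for either digest and 0.07 for p31-43, beside 0.59 to 0.60 and 0.20 for F2R. LIPG differed by 0.77 for PT-G, 0.75 for PT and 0.34 for p31-43, and TNFRSF1A by 0.47, 0.47 and 0.12.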

How the data were processed

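RNA of 16 Caco-2 cultures in 4 conditions was hybridised to 1-colour Agilent 4x44K arrays. The authors deposited the image analysis output, spot intensity on a linear scale, as median foreground, mean foreground, local background and a background-subtracted processed signal, with marks for outliers, saturation and spots well above background. They also deposited a table of log2 values, which differ by at most 5e-09 from quantile normalized median foreground. What follows was computed from the spot intensities.

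Control spots (1639 of the 45015 on an array) were set aside. Median foreground was taken to log2 and quantile normalized, 1774 spots (0.256%) marked as outliers were dropped, and spots of a probe were averaged. A probe needed 3 unmarked arrays in every condition, which 18 of 41000 lacked. The other 40982 were fitted in R 4.3.3 with limma 3.58.1, with all 4 conditions in 1 model, 12 residual and 1.88 prior degrees of freedom, 2-sided moderated tests and p-values adjusted by Benjamini-Hochberg separately for each comparison. The thresholds were the study's nominal p under 0.01 and an adjusted p under 0.05. The model without a block was tested on simulated data for PT-G against MED-CTL, with independent noise and no run or slide effect. The models with a block were not tested in this way. An exact permutation test between 2 conditions could reach no p below 0.0286 and was not used.

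The number of arrays limits the precision, and intervals cover the spread between these cultures only. The genes, the lists and the tests were chosen with earlier results of these data known. Named from each list were at most 4 genes with an adjusted p under 0.05 for PT-G or PT, or, where none passed, the 2 of smallest p, each by its brightest probe. A gene of the transducer list that this rule names is not reported here. All 10 probes of the 9 genes matched their current RefSeq symbol by accession. The files name no genome build for the probes, so no probe positions are given. The probe filter and re-annotation of the study were not used here.

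Deviations from the condition means were correlated over all probes between arrays of the same replicate number. For the 4 pairs of PT-G and MED-CTL r was 0.395 to 0.858, and for p31-43 and MED-CTL 0.263 to 0.708. For PT and MED-CTL r was -0.0176 to 0.41, with 2 of 4 pairs over 0.1, and for PT-G and PT 0.037 to 0.695. The numbers match the runs except that MED-CTL replicates 1 and 2 belong to runs 2 and 1. By run, the correlations with MED-CTL were 0.625 to 0.858 for PT-G, 0.536 to 0.708 for p31-43 and -0.0176 to 0.618 for PT (3 of 4 pairs over 0.1), and those of PT-G with PT were 0.037 to 0.695 (3 of 4). Alternatives tried were normexp background correction (offset 50), the processed signal scaled to its 75th percentile, median scaling, the log2 values as deposited, dim probes left out, marked spots kept, blocks for replicate number, run, slide or early and late runs, only the 2 groups compared, and leaving out each array in turn.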

Additional observations from a re-analysis of the deposited data

Results flagged for a closer look

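Dixon's test at the 95% level singled out 1 array in 6 of the 40 groups of 4 arrays formed by the 10 probes and 4 conditions, where chance alone gives about 5%. F2R on p31-43 replicate 3 was 8.39, and the next array of that condition 7.87. F2RL2 (A_32_P60065) was 6.81 on PT replicate 1, the array on which it was well above background, with the next at 5.85. The same probe was 5.70 on PT-G replicate 1 with the next at 5.81, and F2RL3 was 6.01 on p31-43 replicate 3 with the next at 5.95, both not well above background. SERPINA1 on p31-43 replicate 1 was 12.825, with the next at 13.50. ST14 on MED-CTL replicate 3 was 14.69, with the next at 15.17.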

How the results depend on the processing

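Of 308 comparisons of 28 fold changes with 11 other settings, 294 kept direction and side of the nominal threshold. On the background-subtracted signal none of the 10 probes passed for PT-G (0), F2R being at 0.70. With the replicate, run or slide block 2 passed for PT-G and 2 for PT, F2R and F2RL1, the latter at 0.63 and 0.53 with the replicate or run block and at 0.63 and 0.70 with the slide block. A replicate block changed no other call of these probes. The direction turned for 7 fold changes, none of them past the threshold: SPINT1 for PT-G (-0.0018) and SPINT2 for PT-G against PT (0.036) on the background-subtracted signal, F2RL1 for p31-43 (0.062) and SPINT2 for PT-G against PT (0.061) with median scaling, and SPINT2 for PT (0.0075), F2RL1 for PT-G against PT (-0.074) and SPINK1 for PT-G against PT (0.026) with the slide block. Median scaling set the median of all probes for PT at -0.11. The causes were not tested.

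Counts of list genes past the nominal threshold moved as follows. Normexp, the background-subtracted signal, the filter on dim probes and a fit of only the 2 groups compared each gave 0 transducers for PT-G and 0 other inhibitors for PT. Median scaling gave 0 other inhibitors for PT and 0 proteases for p31-43, and the dim filter and the fit of 2 groups also 0 proteases for p31-43. The replicate block gave 4 transducers for PT-G, 3 for PT and 11 induced genes for PT-G, and the run block 5, 4 and 11. The slide block gave 4 proteases, 1 other inhibitor, 6 transducers and 11 induced genes for PT-G, 4 transducers for PT, and 2 proteases, 2 other inhibitors and 2 transducers for p31-43. Early and late runs as a block gave 4 transducers for PT-G and 2 for PT. With the run block, 4.92% of all probes were called higher for PT-G and 4.86% for PT, against 1.91% and 1.8% without a block. Shares of all probes were not computed for the other settings, so their counts cannot be set against the whole array.

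Leaving out each array in turn gave 0 to 1 probe of the set past the nominal threshold for PT-G and for PT, and 0 for p31-43 and for PT-G against PT. Proteases numbered 2 to 3 for PT-G and PT and 0 to 1 for p31-43. Other inhibitors numbered 0 to 1 for PT and for PT-G against PT. The single transducer for PT-G and the single inhibitor for PT each stood in 5 of the 16 fits, and the single protease for p31-43 in 10. Transducers numbered 0 to 1 for PT-G and 0 to 3 for PT, and induced genes 6 to 10 for PT-G, 5 to 8 for PT and 0 to 1 for p31-43. F2R lay between 0.47 and 0.70 for PT-G and between 0.49 and 0.71 for PT, and F2RL1 between 0.48 and 0.88 for PT-G. Directions that turned were all of differences not past the threshold. For PT-G these were SPINT1 (-0.035 to 0.19), SPINK1 (-0.18 to 0.41), SERPINA1 (-0.041 to 0.31) and ST14 (-0.094 to 0.12). For PT they were SPINT2 (-0.081 to 0.040) and ST14 (-0.0074 to 0.22). For p31-43 they were F2RL1 (-0.21 to 0.21), SPINT2 (-0.11 to 0.035), SPINK1 (-0.10 to 0.39) and SERPINA1 (-0.020 to 0.33). For PT-G against PT they were F2R (-0.083 to 0.083), F2RL1 (-0.085 to 0.34), SPINT2 (-0.11 to 0.011) and SPINK1 (-0.56 to 0.037). All those named for PT-G and for PT against MED-CTL turned without MED-CTL replicate 3. So did SPINT2, SPINK1 and SERPINA1 for p31-43. Without that array SPINT1, SPINK1, SERPINA1 and ST14 for PT-G were -0.035, -0.16, -0.041 and -0.094. Some also turned without another array. Low signal over background limits F2RL2 and F2RL3, for which no setting gives a fold change here.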
